A study of Mus musculus with 12 samples.

Results

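The CCAAT/enhancer-binding proteins (C/EBPs) were followed as 6 genes, Cebpa, Cebpb, Cebpd, Cebpe, Cebpg and Cebpz, taken by their symbols from the 24221 rows of the authors' deposited table. All 6 had a row, and all 6 were among the 13814 genes with an adjusted p-value. The cells were mouse acute myeloid leukaemia cells of strain C57BL/6 that carry MLL-AF9, a fusion oncogene of acute leukaemia. They had loxP-flanked Riok2 alleles (Riok2fl/fl) and received ethanol (EtOH), the vehicle, or hydroxytamoxifen (OHT), for 72 h, with 3 samples in each group. OHT switches on tamoxifen-dependent Cre recombinases. Which Cre the cells carry, and whether they are 1 clone, is not stated by the labels. Both groups share the MLL-AF9 fusion and the floxed alleles, and neither tests OHT in cells without them. The series also holds MLL-AF9 cells with DMSO or 1 µM of a RIOK2 inhibitor, which are not analysed here.

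C/EBPs are basic leucine zipper (bZIP) proteins that bind DNA as dimers. In the myeloid lineage C/EBPalpha, from Cebpa, starts the granulocyte programme in progenitors, and C/EBPepsilon, from Cebpe, drives the late steps in which secondary granules are filled. C/EBPbeta, from Cebpb, acts in emergency granulopoiesis and in inflammation, and C/EBPdelta, from Cebpd, acts in inflammation. C/EBPgamma, from Cebpg, lacks an activation domain of its own and forms dimers with other bZIP proteins. Cebpz carries the family's name but encodes a protein of another kind, a relative of the yeast nucleolar factor Noc1, which acts in early assembly of the large ribosomal subunit. RIOK2, the product of the deleted gene, is an atypical kinase that acts in maturation of the small subunit.

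The table gives 1 value per gene for the whole comparison, so no value per sample can be shown for these genes. It holds a base mean, which is the number of reads after scaling for library size averaged over the libraries, and a fold change on the log2 scale with a standard error (SE). It does not name the numerator. The authors' deposited table gives the targeted gene Riok2 a log2 fold of -3.60 ± 0.20 (SE), and on that ground every fold is taken as OHT over EtOH. Nothing in the labels says that replicates came from separate cultures, and p-values then measure only the spread among these samples, which may be technical. In bulk RNA, fewer cells of a type and less RNA per cell cannot be told apart.

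The myeloid label was checked first. In the authors' deposited table all 8 myeloid markers, among them Spi1, Itgam and Mpo, had base means of at least 2280. The markers Cd3e, Pax5, Ms4a1, Hbb-b1, Hba-a1, Alb and Apoa1 stood at 0 there. A base mean of 0 means that no reads were counted for the gene, which does not show that a cell type was absent. Some other markers of T, B, erythroid, megakaryocyte, stromal and endothelial cells were present. Of them 5 passed the threshold in the authors' deposited table, with the T cell kinase gene Lck (base mean 72.9, log2 fold -2.49) and the B cell receptor gene Cd79b (149, -1.02) lower and Cd3d (16.0, 1.66), Cd79a (9.49, 1.95) and Col1a1 (35.3, 1.48) higher. Pecam1, Itga2b and Pf4 had base means of 1579, 1053 and 101 in the authors' deposited table and did not pass. The part of such cells in the results was not tested. The 4 mast cell, basophil and eosinophil markers (Cpa3, Mcpt8, Fcer1a and Prg2) had base means of 1298 to 13267 and SEs of 0.62 to 0.71 in the authors' deposited table, and 2 of them had a fold and no p-value. Reads per library could be recovered only for genes with a base mean of at most 5. Of the 1716 whose base mean was 1 or more, 73 had 80% or more of their reads in 1 OHT library (size factor 0.697). The other 5 libraries each had between 1 and 6 such genes. Results without that library cannot be computed from this table, and its part in the results below was not tested.

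Cebpd and Cebpe rose in OHT, Cebpg and Cebpz fell, and Cebpa and Cebpb did not pass the threshold. The threshold was an adjusted p-value below 0.05 in the authors' deposited table (DESeq2, Benjamini-Hochberg adjustment over the 13814 genes). Thus 4 of the 6 genes passed it, beside 48.9% of all genes tested. For the rises, 2 of 6 stand beside 25.5% of all genes, and for the falls, 2 of 6 beside 23.4%. Where only genes at base means of 1500 or more are counted, the range in which the family lies, 64.9% of 3438 passed. The family's share of 66.7% is near that background. The median log2 fold change of the 6 genes was -0.19, beside 0.05 over all genes tested.

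**Figure D1:**
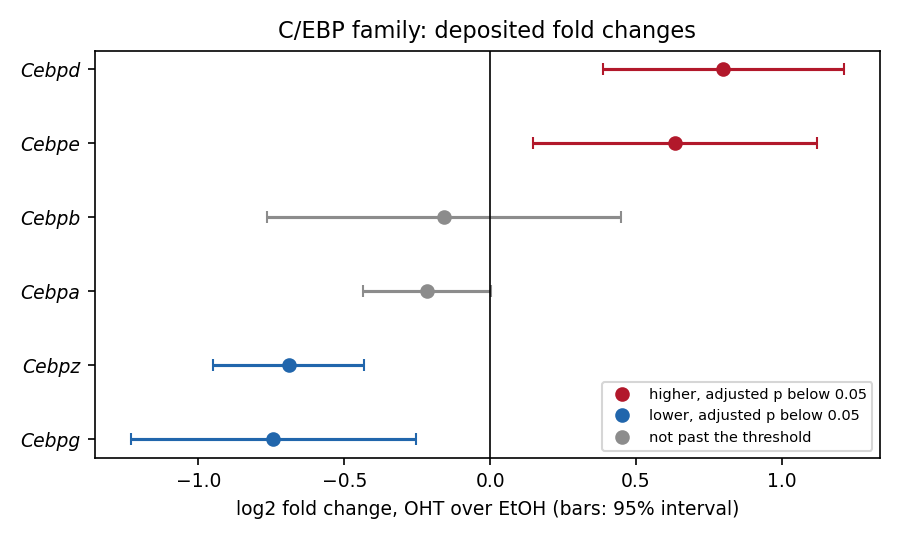
Log2 fold change of each C/EBP gene, OHT over EtOH (x axis), from the authors' deposited table, with bars for the 95% interval and colour for the adjusted p-value. Cebpd and Cebpe lie above 0, Cebpz and Cebpg below it, and the intervals of Cebpa and Cebpb include 0.

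The authors' deposited table gives Cebpe, the gene of the late granulocyte factor, a log2 fold of 0.63 ± 0.25 (SE; adjusted p = 0.0245), at a base mean of 4164. Its level in OHT was thus 155% of the EtOH level (95% interval 111 to 217%, from the SE). The rise passed the threshold of 0.05 and would not have passed one of 0.01.

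For Cebpd, which cytokines induce through STAT3, the authors' deposited table lists a log2 fold of 0.80 ± 0.21 (SE; adjusted p = 0.000524) at a base mean of 2187. Its OHT level was 174% of the EtOH level (95% interval 131 to 232%). Of all genes tested, 78.6% had a lower fold than Cebpd. The highest fold in the family was therefore moderate for this comparison.

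Cebpa, the gene of the factor that starts granulocyte commitment and a tumour suppressor in acute myeloid leukaemia, has a base mean of 2340 in the authors' deposited table and a log2 fold of -0.22 ± 0.11 (SE; adjusted p = 0.0987). Its OHT level was 86.0% of the EtOH level (73.9 to 100.2%). On the log2 scale this is the narrowest interval in the family. A rise to above 100.2%, or a fall to below 73.9%, lies outside it.

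Cebpb has the highest base mean of the 6 genes in the authors' deposited table, 4195, with a log2 fold of -0.16 ± 0.31 (SE; adjusted p = 0.699). Its OHT level was 89.6% of that in EtOH, and the interval runs from 58.9 to 136%. A fall of the size seen in Cebpg lies just inside this interval, and a rise of the size seen in Cebpd lies outside it.

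Cebpg, the dimer partner without an activation domain, has a base mean of 1589 in the authors' deposited table and a log2 fold of -0.74 ± 0.25 (SE; adjusted p = 0.0074). Its OHT level was 59.7% of that in EtOH (95% interval 42.6 to 83.8%). Cebpg had the lowest fold of the family, and 14.8% of all genes tested had a lower one.

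For Cebpz, the nucleolar assembly factor, the authors' deposited table lists a log2 fold of -0.69 ± 0.13 (SE; adjusted p = 9.16e-07) at a base mean of 2291. Its OHT level was 61.9% of that in EtOH (51.8 to 74.1%). Its adjusted p-value was the smallest of the 6, at a fold that differed from that of Cebpg by 0.05 ± 0.28 (combined SE).

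The order of the folds, from high to low, was Cebpd, Cebpe, Cebpb, Cebpa, Cebpz and Cebpg. Differences between members are given with the 2 SEs combined and without a p-value, since all members share their libraries and their errors are not independent. Between neighbours in this order, Cebpe exceeded Cebpb by 0.79 ± 0.40 and Cebpa exceeded Cebpz by 0.47 ± 0.17, with 95% intervals of 0.013 to 1.57 and 0.14 to 0.81. The other 3 neighbouring pairs had intervals that hold 0. Of all 15 pairs, 9 had an interval without 0. Cebpe exceeded Cebpa by 0.85 ± 0.27 and Cebpd exceeded Cebpa by 1.02 ± 0.24, both with intervals that do not hold 0. Cebpb, the other gene of the inflammatory setting, exceeded Cebpa by 0.06 ± 0.33, with an interval that holds 0. Cebpd and Cebpe differed by 0.17 ± 0.33, which does not set them apart.

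The members differed in the SEs of their folds, while the spread of replicates itself cannot be seen without values per sample. Each SE was set against tested genes with a base mean within 1.5-fold. Cebpb had a larger SE than 98.4% of 1157 such genes, Cebpe than 96.4% of 1162, Cebpg than 95% of 2585 and Cebpd than 89.4% of 2158. Cebpa had a larger SE than only 5.24% of its 2063 neighbours, and Cebpz than 24.6% of 2103. The median SE of these neighbours was 0.15 for 5 of the members and 0.16 for Cebpg. Whether 1 library widened the SEs of Cebpb, Cebpe, Cebpg and Cebpd was not tested.

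**Figure D2:**
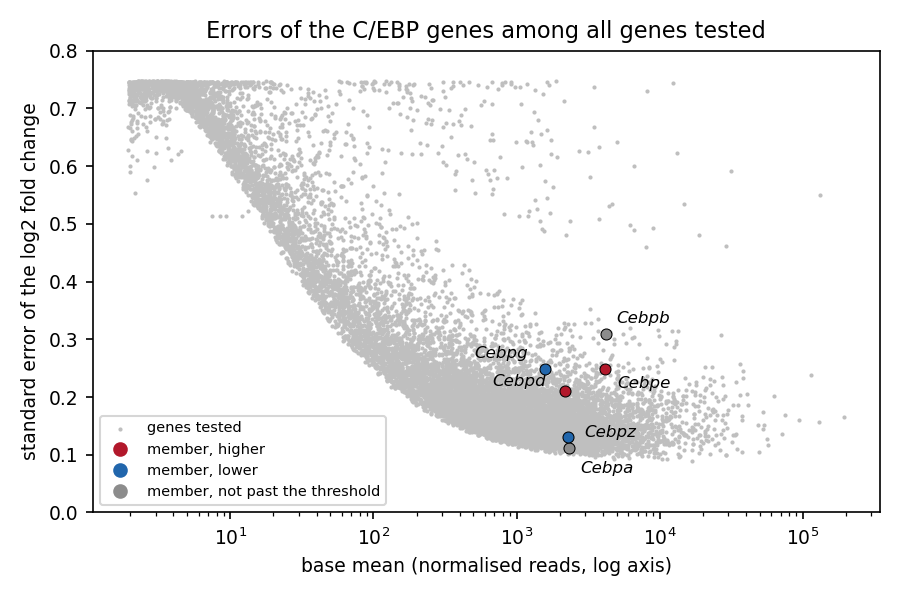
Standard error of the log2 fold change (y axis) against base mean in normalised reads (x axis, log scale) for the 13814 genes tested, in grey, with the 6 C/EBP genes marked. Cebpb, Cebpe, Cebpg and Cebpd sit in the upper part of the cloud at their base mean and Cebpa near its lower edge.

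Levels in each group were worked out from the base mean and the fold, taking the groups as equal in size, and divided by the length of the longest coding transcript with a RefSeq match in GENCODE M21. They are implied values with an interval from the fold's SE alone. The base mean is held fixed, so the interval leaves out its error and is too narrow to rank different genes. In EtOH, Cebpb had 2942 normalised reads per kb (2359 to 3512) and Cebpe 2631 (2115 to 3186), so these 2 genes led the family and their intervals overlapped. Cebpa followed with 958 (890.0 to 1025) and Cebpz with 695 (647 to 742). Cebpd with 426 (352 to 506) and Cebpg with 423 (367 to 473) came last, and their intervals overlapped.

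In OHT, Cebpe had the highest value with 4079 normalised reads per kb (3524 to 4595), followed by Cebpb with 2637 (2067 to 3219). Cebpa had 824 (757 to 892) and Cebpd 742 (662 to 816), values closer together than in EtOH with these transcript lengths. Cebpz had 431 (384 to 479) and Cebpg 252 (202 to 308). These orders, and the distances between genes, depend on the transcript. With the shortest coding transcript of Cebpg, its base mean per kb was 1739 in place of 338, and with the shorter RefSeq model of Cebpd that of Cebpd was 968 in place of 584, beside 891 for Cebpa.

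**Figure D3:**
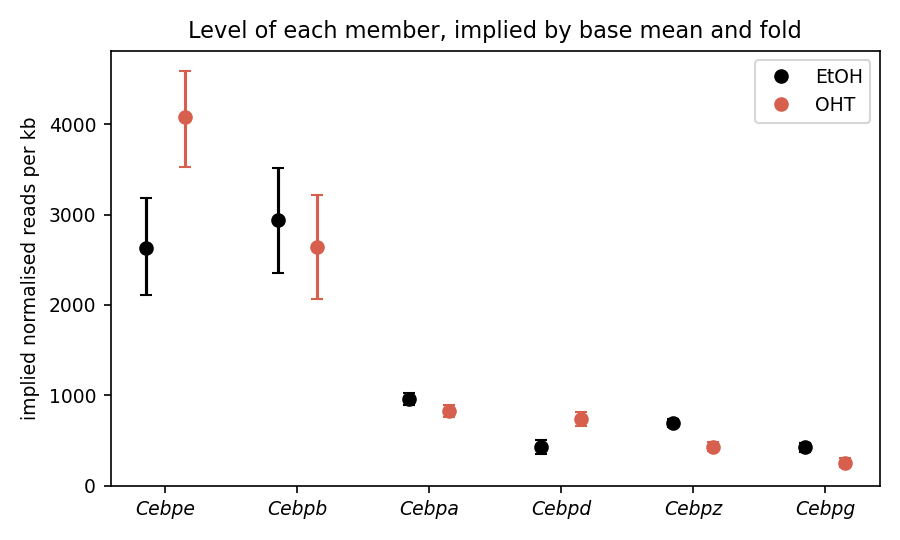
Implied level of each C/EBP gene in normalised reads per kb of transcript (y axis) in EtOH (black) and OHT (red), with bars for the 95% interval of the fold. Cebpb and Cebpe overlap in EtOH, and Cebpe has the higher value of them in OHT. The bars leave out the error of the base mean.

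The genes differ in structure. Cebpa, Cebpb and Cebpd have 1 exon, Cebpe and Cebpg have 2 and Cebpz has 16, in the transcripts named above. The GC content of these transcripts was 62.6% for Cebpa, 67.2% for Cebpb, 51.6% for Cebpd, 61.5% for Cebpe, 43.3% for Cebpg and 43.4% for Cebpz. The 2 genes that fell were thus the 2 with the lowest GC content, given as a description over 6 genes. On GRCm38 (the assembly that mm10 names), Cebpa (ENSMUSG00000034957.10) lies on chromosome 7 at 35119293 to 35121928, plus strand, and Cebpg (ENSMUSG00000056216.9) on the same chromosome at 35046422 to 35056573, minus strand. They are each other's nearest protein-coding gene on that side, 62720 bases apart. Cebpb (ENSMUSG00000056501.3) lies on chromosome 2 at 167688915 to 167690418, plus strand, and Cebpd (ENSMUSG00000071637.5) on chromosome 16 at 15887286 to 15891031, plus strand. Cebpe (ENSMUSG00000052435.7) lies on chromosome 14 at 54710360 to 54712174, minus strand, and Cebpz (ENSMUSG00000024081.9) on chromosome 17 at 78919006 to 78937066, minus strand.

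Overlapping genes limit some of these values, since the strand setting of the read counting is not given in the sources at hand. Exons of Cebpz share 171 bases with those of Cebpzos on the other strand. Exons of Cebpb share 312 bases with those of Tmem189, and exons of Cebpd share 562 with those of Spidr, both on the other strand. Smaller overlaps were those of Cebpa with Gm45091 (51 bases) and Cebpg with Gm45095 (4 bases), also on the other strand. Cebpg shares 73 exon bases with Gm44836 on the same strand. Without strand, reads from such shared bases cannot be told apart, and for Gm44836 strand would not help. Tmem189 rose by 0.70 ± 0.13 in the authors' deposited table (SE; adjusted p = 9.73e-07), where Cebpb did not pass. Spidr has -0.26 ± 0.17 in the authors' deposited table (adjusted p = 0.19), where Cebpd rose.

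Around Cebpz, 3 genes fell by similar amounts. Ndufaf7, which encodes an assembly factor of respiratory complex I, starts 70 bases from the start of Cebpz on the opposite strand. Its log2 fold in the authors' deposited table is -0.63 ± 0.19 (SE; adjusted p = 0.00266), and that of Cebpzos is -0.70 ± 0.28 (adjusted p = 0.0296), beside the -0.69 of Cebpz. Sult6b1, on the far side of Cebpzos, has 0.54 ± 0.39 in the authors' deposited table (adjusted p = 0.26). Of 573 pairs of protein-coding genes that start within 1000 bases of each other on opposite strands and were both tested, 95 (16.6%) had both genes lower, 21 (3.66%) both higher and 45 (7.85%) opposite calls. The Cebpz and Ndufaf7 pair is 1 of the 95.

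The 69 bases between the starts of Cebpz and Ndufaf7 are shown because both genes fell and share them as the region upstream of their starts. The sequence is on chr17:78937067-78937135 of GRCm38 (RefSeq, plus strand, the direction of Ndufaf7). The motifs searched were TGACG, a half-site of the cAMP response element, CCAAT, bound by NF-Y, TTGCG, a half-site of C/EBP dimers, TGATGNAA, a C/EBP-ATF element, CACGTG, the E-box of MYC and MAX, TATAAA and GGGCGG, each on both strands. Capitals mark the matches:
Cebpz-Ndufaf7: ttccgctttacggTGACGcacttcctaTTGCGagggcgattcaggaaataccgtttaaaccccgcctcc
It held TGACG and TTGCG once each and none of the others, and the matches do not overlap. In the last 69 bases before the start, TGACG was found in 8.04% and TTGCG in 4.78% of all 32851 RefSeq promoters. A match is a run of letters and not evidence of binding.

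RefSeq promoter windows were at hand for 3 of the members, Cebpa, Cebpb and Cebpg. The 250 bases before each start are shown to set the gene that fell, Cebpg, beside the 2 that did not pass. They lie on chr7:35119043-35119292 (Cebpa, plus strand), chr2:167688665-167688914 (Cebpb, plus strand) and chr7:35056567-35056816 (Cebpg, minus strand) of GRCm38. Capitals mark TTGCG and TATAAA in Cebpa, TGACG in Cebpb and CCAAT in Cebpg, on either strand:
Cebpa: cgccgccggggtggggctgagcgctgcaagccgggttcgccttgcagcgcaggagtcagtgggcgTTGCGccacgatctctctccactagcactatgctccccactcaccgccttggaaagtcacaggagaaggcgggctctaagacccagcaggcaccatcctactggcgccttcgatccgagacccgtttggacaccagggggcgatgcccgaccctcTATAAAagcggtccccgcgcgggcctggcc
Cebpb: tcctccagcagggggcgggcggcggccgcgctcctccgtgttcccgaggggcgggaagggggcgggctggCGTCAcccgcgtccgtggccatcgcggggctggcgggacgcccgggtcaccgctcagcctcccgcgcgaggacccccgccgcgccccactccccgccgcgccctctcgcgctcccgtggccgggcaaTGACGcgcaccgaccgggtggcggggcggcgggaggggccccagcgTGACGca
Cebpg: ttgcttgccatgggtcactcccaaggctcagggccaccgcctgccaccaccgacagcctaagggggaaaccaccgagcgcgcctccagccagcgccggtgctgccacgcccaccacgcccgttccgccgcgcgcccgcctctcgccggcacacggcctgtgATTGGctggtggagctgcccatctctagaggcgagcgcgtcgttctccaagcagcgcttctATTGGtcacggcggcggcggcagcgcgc
Cebpa had 1 TTGCG, which begins 185 bases before the start, and 1 TATAAA, which begins 30 bases before it. Cebpb had 3 matches of TGACG and no TATAAA, and it also held 5 of GGGCGG, which are not in capitals. Cebpg had 2 matches of CCAAT, both on the other strand, and none of the other motifs. In 250 bases, TTGCG was found in 14.5% of all promoters, TATAAA in 12.4%, TGACG in 17.8%, CCAAT in 33.8% and GGGCGG in 32.7%. None of the 3 windows held TGATGNAA (3.45% of promoters) or CACGTG (6.02%). The windows were rich in G and C, at 66.4% in Cebpa, 81.6% in Cebpb and 70.8% in Cebpg, beside a median of 52.4% over all promoters.

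The genes around the family were taken from lists of textbook relatives, partners, regulators and targets, chosen with earlier results of these data known. A list is described by its counts and median, beside the 25.5% higher, 23.4% lower and median of 0.05 over all genes tested.

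Other bZIP factors related to the C/EBPs, not all of them partners, went both ways. Of 11 genes 10 were tested, and 2 rose, 2 fell and 6 did not pass, with a median of 0.06. The authors' deposited table gives Atf4, the transcription factor of the integrated stress response and a partner of C/EBPbeta and C/EBPgamma, -1.61 ± 0.14 (SE; adjusted p = 2.3e-29), and its relative Atf5 -1.63 ± 0.25 (adjusted p = 6.45e-10). Ddit3, which encodes CHOP, a C/EBP relative that cannot bind the usual C/EBP site, has -1.20 ± 0.66 in the authors' deposited table (adjusted p = 0.12). With so wide an SE, Ddit3 did not pass. The rises in the authors' deposited table were Atf3 (2.44 ± 0.71, adjusted p = 0.0017) and Nfil3 (0.77 ± 0.33, adjusted p = 0.040), a repressor that opposes the PAR bZIP factors.

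Trib1 and Trib2 encode Tribbles pseudokinases that, with the ubiquitin ligase COP1, send C/EBPalpha to the proteasome, and Trib3 is a relative not known for that role. Trib1, with a base mean of 173, rose by 2.57 ± 0.25 in the authors' deposited table (SE; adjusted p = 4.39e-23), and Trib3 fell by 2.78 ± 0.60 (adjusted p = 1.78e-05). Trib2, the family member best known in leukaemia models, had a base mean of 7.02 and 1.38 ± 0.74 (adjusted p = 0.11) there. Cop1, listed as Rfwd2 in the authors' deposited table, has 0.27 ± 0.15 (adjusted p = 0.13). Over all 8 regulators of C/EBP protein or mRNA, 2 rose and 2 fell (median 0.22). The others that passed in the authors' deposited table were the kinase gene Gsk3b (0.71 ± 0.13) and Pcbp2 (-0.52 ± 0.10), which encodes an RNA-binding protein. These are mRNA levels, and neither C/EBP protein nor the long and short forms that Cebpa and Cebpb mRNAs give through alternative start codons was measured.

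Receptors and factors upstream of the family mostly rose. Of 20 genes 19 were tested, 12 rose, 2 fell and 5 did not pass, with a median of 0.89. The G-CSF receptor Csf3r rose by 1.52 ± 0.24 in the authors' deposited table (SE; adjusted p = 3.47e-09), and Il6st, the signalling chain of the IL-6 receptor, by 2.62 ± 0.51. The retinoid receptor Rxra rose by 2.43 ± 0.19 and Klf4 by 2.35 ± 0.18 in the authors' deposited table. Of the factors that act on the Cebpa gene in progenitors, Spi1, which encodes PU.1, rose by 0.71 ± 0.13 and Runx1 by 0.89 ± 0.15 in the authors' deposited table, while Cebpa did not pass. Gfi1, a repressor needed for neutrophils, stood at -0.28 ± 0.15 (adjusted p = 0.099) there. The 2 that fell in the authors' deposited table were Myc (-1.63 ± 0.11) and Myb (-0.87 ± 0.11), both genes of proliferating progenitors. Of the 4 stem and progenitor markers, all tested, 1 rose, 0 fell and 3 did not pass (median 0.68, median SE 0.58).

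Among known targets, the progenitor and primary granule genes went both ways and the later granule genes rose. Of 10 progenitor and primary granule genes, 4 rose and 4 fell (median -0.31). Those that fell were the granule genes Mpo, Elane, Prtn3 and Ctsg, with -2.56 ± 0.12 (SE) for Ctsg in the authors' deposited table. Those that rose were the receptors Csf3r, Il6ra and Csf1r (2.96 ± 0.20) and the lysozyme gene Lyz2 (3.05 ± 0.55) in the authors' deposited table. Csf3r, Il6ra and Gfi1 are also in the upstream list, so the counts of these lists are not separate. All 13 tested genes of 14 in the secondary and tertiary granule list rose, with a median of 2.7 and a range of 0.59 to 4.45. The authors' deposited table has the formyl peptide receptors Fpr1 at 4.45 ± 0.38 and Fpr2 at 3.84 ± 0.31 and the gelatinase Mmp9 at 3.37 ± 0.22. Chil3, the gene not tested, had a fold and no p-value. The folds of 12 of these 13 genes were larger than the 0.63 of Cebpe, the factor known for driving many of them, and the exception was Hp with 0.59 ± 0.19 in the authors' deposited table.

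Of 16 inflammatory genes taken as targets of C/EBPbeta or C/EBPdelta, 13 were tested, 9 rose, 0 fell and 4 did not pass (median 1.81). The median SE of this list was 0.56. With SEs of at most 0.5 alone 5 rose, and these were all of the tested genes within that limit. Per the authors' deposited table Il1rn, the interleukin 1 antagonist, rose by 2.89 ± 0.19 (SE), Il1b by 2.57 ± 0.67 and the chemokine Ccl2 by 2.25 ± 0.75. Il10 was at 0. Nos2, the inducible nitric oxide synthase, did not pass in the authors' deposited table (-1.24 ± 0.74, adjusted p = 0.16). Reads of Nos2 by library were 3, 6 and 9 on the EtOH side and 2, 0 and 0 on the OHT side. How many low genes have reads that separate the groups in this way was not counted, and nothing is drawn from these few reads.

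Genes that act beside Cebpz in early large-subunit assembly all fell. All 19 were tested and lower, with a median of -0.92 and a range of -1.44 to -0.47. The authors' deposited table gives Noc2l, whose yeast relative pairs with that of Cebpz, -1.09 ± 0.11 (SE; adjusted p = 1.31e-20), and Noc3l -0.93 ± 0.19 (adjusted p = 8.55e-06). The largest falls in the authors' deposited table were Rrp15 (-1.44 ± 0.18), Ppan (-1.42 ± 0.14) and the helicase Ddx56 (-1.23 ± 0.13). The -0.69 of Cebpz lay inside the range of this list and outside that of the secondary granule list. The same held for the -0.74 of Cebpg, so this position does not set Cebpz apart within the family. In leukaemia cells CEBPZ has also been described as a partner of the RNA methyltransferase METTL3 at promoters. Of 9 genes around that enzyme 1 rose and 1 fell, and 7 did not pass (median -0.10). Per the authors' deposited table Mettl3 itself had -0.30 ± 0.15 (SE; adjusted p = 0.0998), Mettl14 fell by 0.57 ± 0.18 and Virma, listed there as 1110037F02Rik, rose by 0.43 ± 0.18.

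**Figure D4:**
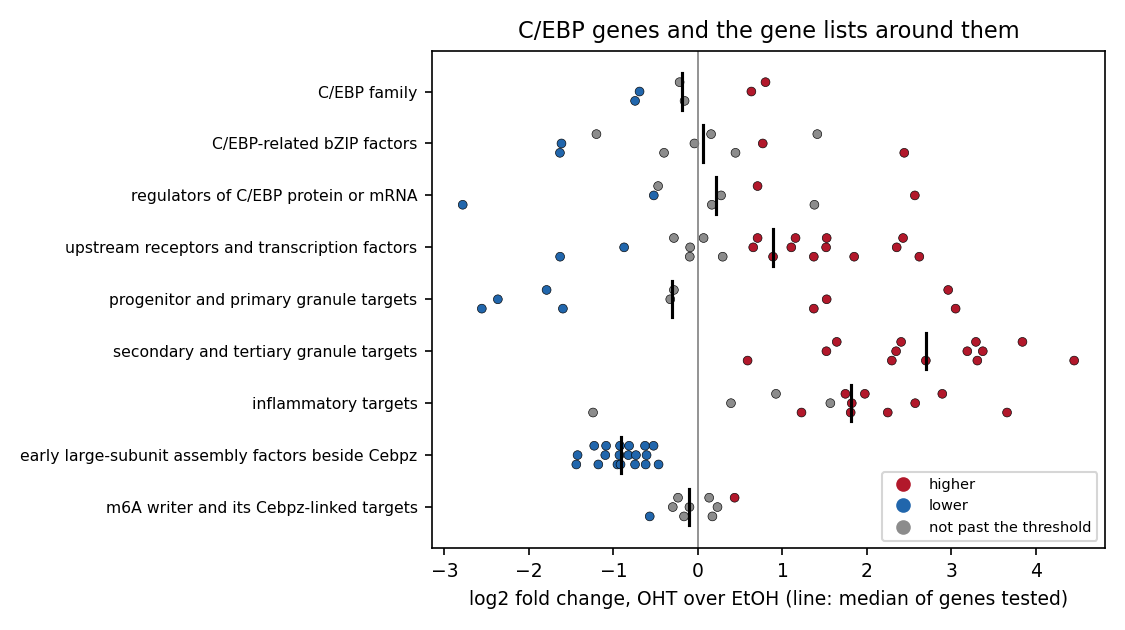
Log2 fold change, OHT over EtOH (x axis), of each tested gene in the C/EBP family and in 8 lists around it, from the authors' deposited table, with colour for the call and a black line for the median. The secondary granule genes lie above 0, the large-subunit assembly genes below it, and the C/EBP genes on both sides.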

How the data were processed

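The 12 samples of the series fall into 4 groups of 3, and the table used here compares OHT with EtOH. The submitters' processing notes name mm10, DESeq2, DESeq, HTSeq 0.9.1, STAR 2.7.2b and Trimmomatic 0.38.0. The authors deposited a signal (base mean of normalised reads), a log2 fold change and its SE, a p-value, its adjusted form and a Wald score for each gene, with 0 columns of values per sample. The deposited score was checked as fold over SE (largest gap 7.56e-08). The deposited adjusted p-value was checked as a Benjamini-Hochberg adjustment (largest gap 2.33e-07). Base means summed to 20307732 normalised reads. No SE exceeds 0.747, so a prior is taken to have drawn the deposited folds towards 0. The planned edgeR test for counts did not apply, and no new test of samples was made. The members, lists and choices were made with earlier results of these data known. Values of 2 marker genes are not reported here.

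Group levels were computed as 2 × base mean ÷ (1 + fold) for EtOH and the remainder for OHT. Reads per library were solved from base means for all 4645 genes with a base mean of at most 5 (tolerance 1e-08), with sides read from the sign of the fold of genes with 1 read. Calls and centring were also run on simulated data, with errors drawn from the deposited SEs and far fewer changed genes than passed here. That run checks the code, and not the calls or the centring of these data. Genes named are the members, their genomic neighbours, a fixed set (Riok2, Ddit3, Atf4, the Tribbles genes, Spi1, Runx1, Gfi1, Csf3r, Noc2l, Noc3l, Mettl3), the 3 largest folds in each list among genes that passed with a base mean of 100 or more, and each gene that passed against its list's median. Nfil3, Cop1, Hp, Il10, Chil3, Nos2, Mpo, Elane, Prtn3, the lineage markers and the low genes and genes without a p-value in the closing section were named after their values were seen. Annotation came from GENCODE M21 and promoters from RefSeq (GRCm38.p6). Python 3.11.15, pandas 2.3.3 and scipy 1.17.1 were used.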

Additional observations from a re-analysis of the deposited data

How the results depend on the processing

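No paired analysis was possible because the table holds no values per sample. For the same reason no replicate could be left out and no other tool could be run. The 4 family calls were kept when p-values were adjusted over every gene with a p-value. With a threshold of 0.01 Cebpe was lost (adjusted p = 0.0245), which leaves 1 member higher, and with 0.1 Cebpa (0.0987) would pass as lower. Under a Bonferroni adjustment Cebpd, Cebpe and Cebpg were lost (each at 1), and Cebpz passed. Centred on the median of all genes tested, which lowers each fold by 0.05, Cebpa had -0.27 (adjusted p = 0.0372) and passed, and centred on the median of genes at base means of 100 or more it had -0.20 (adjusted p = 0.141) and did not. With the prior undone in an approximation added after seeing the data, each member moved by less than its SE. No member had an absolute log2 fold change of at least 1 (0 higher and 0 lower), and over all genes tested 1882 higher and 1009 lower had one, beside 3521 and 3231. In the list of related bZIP factors 1 gene in place of 2 was higher with a threshold of 0.01, with centring, and with SEs of at most 0.5 (a limit added after seeing the data). With that limit 1 in place of 2 regulators was lower, and 5 in place of 9 inflammatory genes were higher. These 5 were all of the tested inflammatory genes within the limit. In the list around METTL3 0 in place of 1 were higher with a threshold of 0.01 and with centring, and 2 in place of 1 lower with centring. If such a prior was used, folds of low genes and of genes with wide SEs are understated, which was not tested.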

Other observations

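Genes that flank the family were called in both directions. Slc7a8, an amino acid exchanger 10035 bases from Cebpe, rose by 1.70 ± 0.54 in the authors' deposited table (SE; adjusted p = 0.0047). Ptpn1, which encodes the tyrosine phosphatase PTP1B and lies 241639 bases from Cebpb, rose by 0.73 ± 0.17 in the authors' deposited table (adjusted p = 0.000114). Beside Cebpd, Mzt2, a gene of the microtubule nucleation complex, fell by 0.96 ± 0.21 (adjusted p = 3.13e-05) in the authors' deposited table, and the desmosome gene Pkp2 rose by 1.89 ± 0.69 (adjusted p = 0.0139). Pepd, 1714 bases from Cebpg, has 0.07 ± 0.16 in the authors' deposited table (adjusted p = 0.73), where Cebpg fell. Slc7a10, the nearest protein-coding gene on the other side of Cebpa, had a base mean of 0.

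The authors' deposited table has 51 genes with a fold but without a p-value, and 50 had a fold above 0, with SEs of 0.51 to 0.75. They include the eosinophil granule genes Prg2 and Epx and the alternative activation genes Chil3, Arg1 and Retnla, programmes in which C/EBPepsilon and C/EBPbeta are known to act. By default DESeq2 leaves out the p-value where a single library holds an extreme count, and whether that default was in use is not stated. Among low genes of the lists with reads by library, Lef1 had both of its 2 reads and Ncr1 7 of 8 in the OHT library with a size factor of 0.697. In the OHT library with a size factor of 1.88, Klrb1c had 3 of 3 reads, Kdr 4 of 5 and Col1a2 its only read. Cd3g had reads in all 3 OHT libraries and none on the EtOH side, Krt18 had the reverse, and Cdh5 and Csf3 had reads on both sides. How often other low genes have reads on a single side was not counted, and nothing is drawn from these few reads.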
